A study of Mus musculus with 10 samples.

Results

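The genes described here build or switch on the motile cilium. They were taken from the deposited gene table as the protein-coding genes whose symbols begin with Dnah, Dnai, Rsph, Cfap or Drc and a digit, or with Spag6, Spag16 or Spag17, together with Foxj1, Ak7, Dynlrb2, Ccdc153 and Tmem212. This gave 61 of 52636 genes, of which 15 were dynein heavy chains, 26 Cfap genes, 8 radial spoke genes, 3 genes of the nexin-dynein regulatory complex, 4 Spag genes of the central pair and the 5 named singly. No Dnai gene was among the rows, and intermediate chains are not analysed here. Hippocampal messenger RNA was sequenced as 5 libraries from Tshr-/- mice, which lack the receptor for thyroid-stimulating hormone, and 5 from wild-type mice, all C57BL/6 and 3 months old. The labels give neither thyroid hormone replacement nor whether a library is 1 mouse, so that p-values measure the spread between these libraries. Levels are FPKM, which count fragments per gene length and per library size. Library totals rebuilt from FPKM were 25744854 to 28332278 reads for Tshr-/-, and 23899650 to 33529811 for wild type. Tshr itself had 0, 0, 0, 5 and 2 reads in Tshr-/- libraries 1 to 5, against 9, 12, 7, 2 and 2 in wild-type libraries 1 to 5, so that at this depth its level did not separate Tshr-/- libraries 4 and 5 from wild-type libraries 4 and 5. The labels do not say which exons were removed, and reads outside them would not check a deletion.

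A motile cilium beats because dynein arms, attached in an outer and an inner row to microtubule doublets, slide the doublets past each other. Radial spokes and the nexin-dynein regulatory complex link the doublets to each other and to a central pair of microtubules, and so coordinate the arms. In the brain, cilia of this kind stand in tufts on ependymal cells, which line the ventricles and move cerebrospinal fluid. Choroid plexus epithelial cells carry cilia too, while most neurons carry a single primary cilium that lacks dynein arms. Foxj1 is the transcription factor that switches on the motile programme, together with RFX factors. The hippocampus borders the lateral ventricle and its choroid plexus. In such bulk samples, fewer cells of a type and less RNA per cell cannot be told apart.

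Axoneme transcripts were present at low levels in all 10 libraries. Mean levels of the 61 genes over the libraries ran from 0.0599 FPKM for the heavy chain Dnah14 to 26.1 FPKM for Cfap36, with a median of 0.506 FPKM, and the gene with the fewest reads, Cfap77, had 56 in all. The median of all genes tested was 5.05 FPKM. The test of each gene, limma on log2(FPKM + 0.1), was run over all 15471 genes with a mean of at least 0.5 FPKM, and 31 of the 61 passed this filter. The other 30 lay between 0.0599 and 0.458 FPKM. Of the 31, 7 had a mean below 0.5 FPKM in wild type and passed through their level in Tshr-/-, and none passed through wild type alone.

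No axoneme gene was called between the genotypes. At a Benjamini-Hochberg adjusted p below 0.05, limma called 0 of the 31 higher in Tshr-/- and 0 lower, against 0.0% and 0.0129% of all genes tested, and limma voom on the rebuilt reads also called 0. The smallest adjusted p was 0.186. At an unadjusted p below 0.05, limma gave 8 of the 31 higher in Tshr-/- and 0 lower, where 4.65% of all genes were higher and 8.38% lower. Each difference is the mean log2(FPKM + 0.1) of Tshr-/- less that of wild type, and the added 0.1 shrinks it for low genes. Differences were above 0 for 26 of the 31, against 46.7% of all genes, with a median of 0.33 against -0.01. Because 7 of these genes passed the filter through Tshr-/-, the same was counted with no filter. There 55 of 61 differences were above 0, against 51.9% of all genes, the median was 0.38 against 0.01, and 16 of the 61 were higher at an unadjusted limma p below 0.05, with 0 lower, against 4.02% and 4.93% of all genes. At an adjusted p below 0.05 that fit called 0 of the 61 in either direction, against 0.0% of all genes higher and 0.0117% lower. All genes in that fit, 34046, were not matched to the axoneme genes on level.

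**Figure D1:**
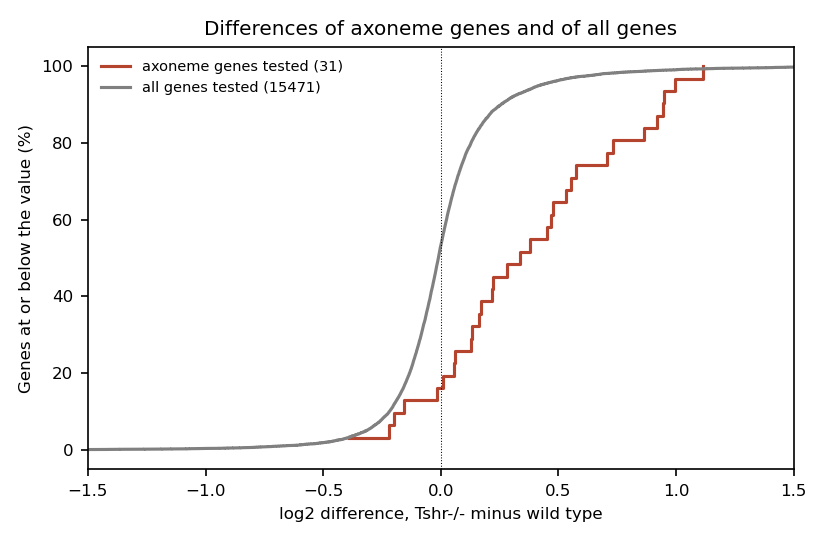
Share of genes (y axis, percent) at or below each log2 difference, Tshr-/- minus wild type (x axis), for the 31 axoneme genes tested (red) and all 15471 genes tested (grey). The red curve lies to the right of the grey one over most of its length, with a median of 0.33 against -0.01.

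The singly named genes, all known as marks of ciliated ependymal cells or of the ciliary programme, varied widely between libraries of the same genotype. Ccdc153 (ENSMUSG00000070306, mm10 chromosome 9, 44240676 to 44247306), a coiled-coil protein of motile cilia, had 2.46, 4.29, 0.616, 3.41 and 2.18 FPKM in Tshr-/- libraries 1 to 5, against 0.705, 2.21, 2.01, 1.84 and 0.572 FPKM in wild-type libraries 1 to 5. Tshr-/- libraries 2 and 4 were highest, while Tshr-/- library 3 stood with wild-type libraries 1 and 5 at the bottom. Tmem212, a membrane protein used as an ependymal marker, had the same libraries at its extremes, with 2.28, 3.98, 0.531, 2.87 and 1.76 FPKM in Tshr-/- and 0.274, 1.70, 1.40, 1.52 and 0.673 FPKM in wild type. Ak7, an adenylate kinase of cilia, had 0.745, 1.46, 0.280, 1.29 and 0.747 FPKM in Tshr-/- and 0.202, 0.594, 0.414, 0.584 and 0.153 FPKM in wild type. In all 3 genes Tshr-/- library 3 lay within the wild-type range, while the other 4 lay above it, except that Ccdc153 in Tshr-/- library 5 was just under wild-type library 2. Dynlrb2, a roadblock-type dynein light chain, was high in Tshr-/- libraries 2 and 4 alone, with 1.10, 3.24, 1.16, 4.57 and 0.909 FPKM in Tshr-/- against 0.411, 1.6, 1.49, 1.23 and 0.433 FPKM in wild type.

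The log2 differences were 0.73 ± 0.51 for Ccdc153, 0.95 ± 0.55 for Tmem212, 1.0 ± 0.43 for Ak7 and 0.92 ± 0.51 for Dynlrb2 (SE, limma adjusted p = 0.563, 0.483, 0.362 and 0.470). None passed the threshold. Foxj1 (ENSMUSG00000034227, chromosome 11, 116330704 to 116335399) had 3.40, 6.86, 2.59, 8.41 and 4.89 FPKM in Tshr-/- and 3.26, 4.49, 5.70, 4.24 and 2.60 FPKM in wild type. Its highest values were again in Tshr-/- libraries 2 and 4, and its difference of 0.28 ± 0.31 was smaller than its SE (limma adjusted p = 0.736). That difference of Foxj1 was 0.08 without Tshr-/- library 4, 0.15 without Tshr-/- library 2, 0.14 without wild-type library 5 and 0.50 without Tshr-/- library 3. Ak7 lies on chromosome 12, as Tshr does, 14.2 Mb beyond it, and so does the heavy chain Dnah11, 26.3 Mb beyond Tshr.

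**Figure D2:**
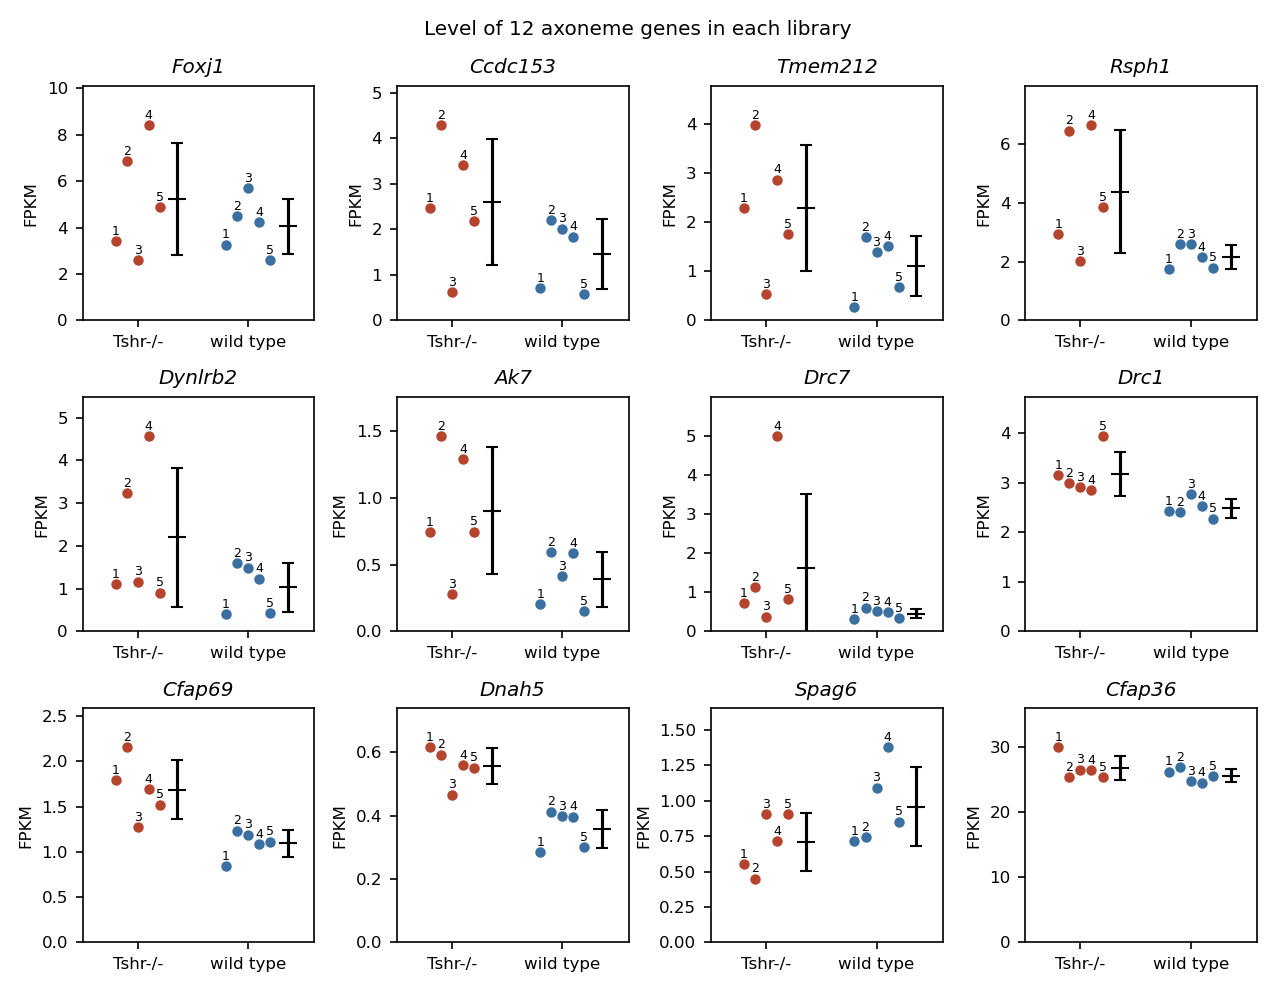
FPKM (y axis, from 0) of 12 axoneme genes in each library, with Tshr-/- in red and wild type in blue, library numbers beside the points and mean ± SD (n = 5) in black (the lower bar of Drc7 runs below 0). Ccdc153, Tmem212, Rsph1, Dynlrb2 and Ak7 are highest in Tshr-/- libraries 2 and 4, with Tshr-/- library 3 inside the wild-type range, and Drc1, Cfap69 and Dnah5 show no overlap between the genotypes.

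The letters around the start sites were searched for the sites of the known regulators of these genes. RFX factors bind X-boxes built of the core GTTGCC, and forkhead factors such as Foxj1 bind TGTTTAC. Both were searched on both strands from 250 bases before to 50 after the start site in RefSeq promoters (build GRCm38.p6, the coordinates of mm10). Of the 61 genes, 50 had 54 promoters there. Cfap157, Cfap53, Cfap54, Cfap65, Cfap73, Cfap97, Dnah3, Foxj1, Rsph1, Rsph10b and Rsph4a had none. The RFX core was in 19 of the 54 (35.2%), against 12.5% of all 32851 promoters, and the forkhead site in 4 of the 54 (7.41%), against 3.65%. A match of letters is a description and does not show binding. The 3 stretches with an RFX core (capitals) come from genes whose levels are given here, and the fourth shows the forkhead site (capitals). They were picked after the matches were seen, and all are on the plus strand before the start site.
Ccdc153, chr9:44240485-44240570: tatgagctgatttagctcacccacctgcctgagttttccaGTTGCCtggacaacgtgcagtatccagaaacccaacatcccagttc
Dynlrb2, chr8:116504924-116505009: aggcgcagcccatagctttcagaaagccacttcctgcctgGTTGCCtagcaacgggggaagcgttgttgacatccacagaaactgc
Drc1, chr5:30281342-30281392: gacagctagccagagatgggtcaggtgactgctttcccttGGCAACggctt
Ak7, chr12:105705811-105705897: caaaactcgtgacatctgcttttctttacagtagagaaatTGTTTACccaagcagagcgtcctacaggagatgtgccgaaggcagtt
The RFX core began 152 bases before the start of Ccdc153 and 51 before that of Dynlrb2, and stood in the reverse sense 11 bases before that of Drc1. The forkhead site began 131 bases before the start of Ak7. The promoter of Cfap20, a gene with nearly level values, held both.

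Dynein heavy chains, the motors of the arms, are long genes whose FPKM is low while their reads are not few. Tshr-/- had the higher mean for 14 of the 15. Of the 5 heavy chains of the outer arm, Dnah9 was the most abundant and the only one tested, with 1.18, 1.25, 1.6, 1.70 and 1.05 FPKM in Tshr-/- and 1.58, 1.31, 1.49, 2.17 and 1.13 FPKM in wild type, a difference of -0.16 ± 0.18 (SE, limma adjusted p = 0.746). The genotypes overlapped over most of their range, and the difference was -0.03 without wild-type library 4, -0.08 without Tshr-/- library 5, -0.24 without Tshr-/- library 4 and -0.25 without wild-type library 5. Dnah5 (chromosome 15, 28203752 to 28472045), the outer arm chain most often mutated in human ciliary disease, did not overlap. It had 0.617, 0.593, 0.467, 0.559 and 0.552 FPKM in Tshr-/- (1221 reads) against 0.286, 0.413, 0.399, 0.397 and 0.301 FPKM in wild type (768 reads). It lay just under the filter at a mean of 0.458 FPKM, and without a filter its log2 difference was 0.52 (limma adjusted p = 0.382). Dnah11, a further outer arm chain, had 0.0966, 0.202, 0.0394, 0.349 and 0.115 FPKM in Tshr-/- and 0.0361, 0.105, 0.0693, 0.0808 and 0.0222 FPKM in wild type. Its exons overlap those of Cdca7l on the opposite strand, and the library kit does not mark strand.

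Of the 10 inner arm chains, counting Dnah14 among them, Dnah1 and Dnah2 passed the filter. Dnah1 had 0.543 to 0.902 FPKM in Tshr-/- and 0.565 to 0.817 FPKM in wild type, and Dnah2 0.434 to 0.686 FPKM in Tshr-/- and 0.295 to 0.665 FPKM in wild type. Their differences were 0.05 ± 0.17 and 0.22 ± 0.22 (SE, limma adjusted p = 0.920 and 0.696). Dnah7b, whose level is uncertain because reads may be split wrongly among its near copies Dnah7a and Dnah7c, had 0.181 to 0.451 FPKM in Tshr-/- and 0.170 to 0.260 FPKM in wild type. Among the chains under the filter, Dnah6, named after its values were seen, had 663 reads in Tshr-/- and 248 in wild type, at 0.242, 0.495, 0.155, 0.705 and 0.196 FPKM in Tshr-/- against 0.0912, 0.182, 0.132, 0.179 and 0.0940 FPKM in wild type (log2 difference without a filter 0.84, limma adjusted p = 0.499). Tshr-/- libraries 2 and 4 were again the highest.

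Radial spoke genes split between steady and variable members. Rsph9, a spoke head protein, was the most abundant, with 7.47, 5.53, 6.21, 8.21 and 8.09 FPKM in Tshr-/- and 6.13, 6.65, 6.28, 5.83 and 5.34 FPKM in wild type, a difference of 0.22 ± 0.11 (SE, limma adjusted p = 0.438). Rsph1, also of the spoke head (ENSMUSG00000024033, chromosome 17, 31255019 to 31277356), had 2.93, 6.45, 2.02, 6.64 and 3.85 FPKM in Tshr-/- against 1.74, 2.58, 2.58, 2.15 and 1.79 FPKM in wild type. Only Tshr-/- library 3 lay within the wild-type range, and the difference of 0.86 ± 0.30 did not pass (SE, limma adjusted p = 0.276). The near-identical pair Rsph3a and Rsph3b, proteins of the spoke stalk whose reads may be split wrongly between them, had means of 4.62 ± 1.17 and 5.27 ± 0.424 FPKM in Tshr-/- and 5.18 ± 0.245 and 4.79 ± 0.420 FPKM in wild type (SD, n = 5 each). Their log2 differences were -0.20 and 0.13. Of the 8 spoke genes, 6 were tested, 0 were called, and 2 had an unadjusted p below 0.05, Rsph1 and Rsph10b, both higher. Rsph10b, another spoke gene, shares exon sequence with Pms2 on the same strand.

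The 3 Drc genes, of the nexin-dynein regulatory complex that ties neighbouring doublets together, were all tested and all had a difference above 0. Subunits of the complex under other symbols fall outside the rule. Among the further structure genes, Gas8, Ccdc65 and Iqcd had differences of 0.09, 0.22 and -0.30, and Tcte1 was not tested. Drc1 (ENSMUSG00000073102, chromosome 5, 30281388 to 30366695), a scaffold of the complex, had 3.15, 3.00, 2.92, 2.85 and 3.94 FPKM in Tshr-/- against 2.43, 2.40, 2.78, 2.52 and 2.27 FPKM in wild type, with no overlap. Drc3, another protein of the complex, had 1.6, 2.02, 1.39, 1.95 and 1.68 FPKM in Tshr-/- against 1.19, 1.36, 1.5, 1.27 and 1.18 FPKM in wild type, where Tshr-/- library 3 lay below wild-type library 3. Their differences were 0.33 ± 0.09 and 0.38 ± 0.12 (SE, limma adjusted p = 0.206 and 0.237). Drc7 was far higher in 1 library than in the rest. It had 5.0 FPKM in Tshr-/- library 4, which was 4.4 times the next library, beside 0.718, 1.14, 0.381 and 0.822 FPKM in Tshr-/- libraries 1, 2, 3 and 5 and 0.306, 0.607, 0.525, 0.499 and 0.349 FPKM in wild type. Its log2 difference was 1.11 ± 0.52 (SE, limma adjusted p = 0.396), and 0.59 without Tshr-/- library 4. Tshr-/- libraries 1, 2 and 5 also lay above every wild-type library.

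The central pair gene Spag6 had the lowest log2 difference of the 31 genes tested. It had 0.552, 0.451, 0.907, 0.716 and 0.905 FPKM in Tshr-/- and 0.712, 0.745, 1.09, 1.38 and 0.852 FPKM in wild type, lowest in Tshr-/- libraries 1 and 2, with a difference of -0.39 ± 0.23 (SE, limma adjusted p = 0.489). Its close paralogue Spag6l was steady, at 1.33, 1.37, 1.2, 1.83 and 1.54 FPKM in Tshr-/- and 1.26, 1.40, 1.33, 1.35 and 1.21 FPKM in wild type. Reads that fit both copies make the split between them uncertain. Spag16, a central pair protein with far fewer reads, 173 in Tshr-/- and 56 in wild type, had 0.191, 0.151, 0.0674, 0.398 and 0.112 FPKM in Tshr-/- against 0.0193, 0.0703, 0.116, 0.0894 and 0.0178 FPKM in wild type. It peaked in Tshr-/- library 4 and was not tested under the filter.

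Cfap genes form a mixed class named after cilia and flagella. The 3 most abundant, Cfap36, Cfap20 and Cfap97, hardly varied, and as background Cfap20 and Cfap36 are also made in cells without motile cilia. Cfap36 had 25.4 to 30.0 FPKM in Tshr-/- and 24.5 to 26.9 FPKM in wild type, Cfap20 had 6.57 to 7.31 FPKM in Tshr-/- and 6.45 to 7.10 FPKM in wild type, and Cfap97 had 4.72 to 5.71 FPKM in Tshr-/- and 5.02 to 5.69 FPKM in wild type. Their differences were 0.06, 0.01 and -0.01 (limma adjusted p = 0.661, 0.952 and 0.943), the last 2 of which changed sign when single libraries were left out. Cfap69 (ENSMUSG00000040473, chromosome 5, 5579278 to 5664239), known from sperm flagella and olfactory cilia, had the smallest p of the 31 tested. It had 1.79, 2.16, 1.27, 1.70 and 1.52 FPKM in Tshr-/- against 0.847, 1.23, 1.19, 1.09 and 1.11 FPKM in wild type, with no overlap, and a difference of 0.57 ± 0.15 (SE, limma adjusted p = 0.186). Cfap100, a homologue of a modifier of inner arms in the alga Chlamydomonas, had 1.26, 1.93, 1.61, 1.29 and 1.31 FPKM in Tshr-/- and 1.70, 1.36, 1.73, 2.68 and 1.39 FPKM in wild type (-0.22 ± 0.18, SE, limma adjusted p = 0.637). Wild-type library 4 was the highest, and without it the difference was -0.07. Its exons overlap those of Zxdc on the opposite strand.

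The 30 genes under the filter were described without it. In 29 of them the log2 difference was above 0, with a median of 0.39, and 8 had an unadjusted limma p below 0.05, all higher in Tshr-/-. Over all 34046 genes with reads, which were not matched on level, 51.9% were above 0 and 4.02% were higher at that p. The ratio of means, Tshr-/- over wild type, had a median of 1.68 and ran from 0.923 for Cfap99 to 6.59 for Cfap77, where Cfap77 rested on 49 reads in Tshr-/- and 7 in wild type. Cfap70, a protein of the axoneme named after its values were seen, had 193 reads in Tshr-/- and 71 in wild type, at 0.183, 0.293, 0.248, 0.557 and 0.345 FPKM in Tshr-/- against 0.0685, 0.118, 0.163, 0.207 and 0.0655 FPKM in wild type (limma adjusted p = 0.364 without a filter). Wild-type library 4 lay above Tshr-/- library 1, and the other libraries kept apart by genotype. At the filter's edge, Dnah5 and Cfap46 were left out with a Tshr-/- mean of at least 0.5 FPKM, while Cfap45, Cfap65, Drc7 and Ak7 were among those let in with a wild-type mean below it.

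Levels did not overlap between the genotypes for 6 of the 61 genes (9.84%), each higher in Tshr-/-, and for 0 that were lower. Over all 34046 genes with reads, 0.79% lay wholly higher and 0.969% wholly lower in Tshr-/-. Those genes were not matched on level. A gene at 0 in a library of each genotype cannot lie wholly apart, while the axoneme genes were above 0 in every library. The shares are therefore not like for like. The 6 were Drc1, Cfap69 and Dnah5, described above, and Cfap45, Cfap43 and Cfap54, which are named after their values were seen. Cfap45, a protein inside the doublet microtubules, had 0.601 to 0.715 FPKM in Tshr-/- and 0.344 to 0.536 FPKM in wild type. Cfap43, which is needed for sperm flagella, had 0.305 to 0.810 FPKM in Tshr-/- and 0.181 to 0.302 FPKM in wild type. The groups of Cfap43 were thus barely apart, and its exons overlap those of Itprip on the same strand. Cfap54, a protein of the central pair, had 0.327 to 0.529 FPKM in Tshr-/- and 0.138 to 0.314 FPKM in wild type. The ratio of means, Tshr-/- over wild type, ran from 1.28 to 1.87 in the 6 genes. Tmem212, Ccdc153, Ak7, Dynlrb2 and Drc7, whose highest library exceeded the lowest by a wider ratio than in any of the 6, all overlapped between the genotypes.

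**Figure D3:**
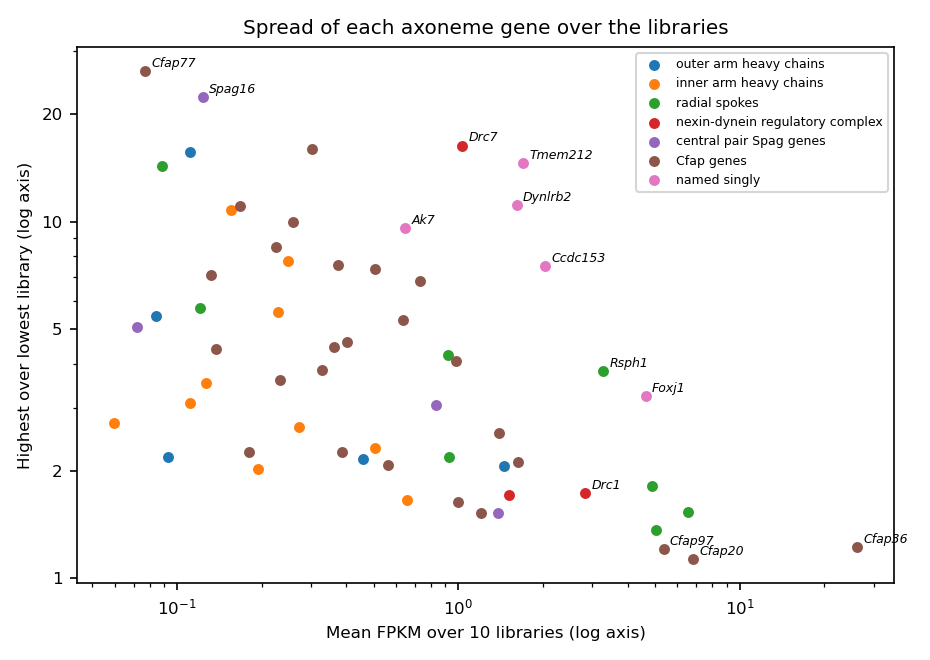
Ratio of the highest to the lowest of the 10 libraries (y axis, log scale) against mean FPKM (x axis, log scale) for each of the 61 axoneme genes, coloured by role. Cfap20, Cfap97 and Cfap36 stay below 1.5, while Drc7, Tmem212 and Dynlrb2 exceed 10 at mean levels above 1 FPKM.

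Axoneme genes had a wider spread between libraries at the median than all genes. The ratio of the highest to the lowest library had a median of 2.19 over the 31 genes tested, against 1.45 over the 15170 genes that were tested and above 0 in every library. It ran from 1.13 for Cfap20 to 26.4 for Cfap77, and reached 5 in 24 of the 61 genes. Genes with few reads swing more by counting alone, so the genes with means from 0.5 to 5 FPKM were compared. Levels and reads were not matched within that range, and what counting adds to the spread was not tested. Within a genotype, 26 axoneme genes in that range had a median SD on the log2 scale of 0.373 in Tshr-/- and 0.334 in wild type, against 0.223 and 0.199 for all 7712 genes in it.

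The same libraries carried the extremes in gene after gene. Tshr-/- library 4 was the highest of the 10 for 26 of the 61 genes and Tshr-/- library 2 for 19, together 73.8%. Of the 31 tested genes 64.5% were highest in these libraries, against 23.0% of all genes tested. Wild-type library 5 was the lowest for 22 and wild-type library 1 for 19, together 67.2%. Of the 31 tested genes 61.3% were lowest there, against 13.1% of all genes tested. Tshr-/- library 3 did not stand with the other Tshr-/- libraries. It lay above the wild-type mean for 26 of the 61 genes, where libraries 1, 2, 4 and 5 did so for 51, 53, 52 and 48. A wild-type library was highest for 5 genes, namely Dnah9, Cfap100, Spag6 and Cfap58 in library 4 and Cfap99 in library 3. The FPKM of all 61 genes summed to 103, 112, 83.5, 125 and 98.9 in Tshr-/- and to 81.3, 92.2, 91.9, 91.2 and 77.2 in wild type. Cfap36 gave 24.5 to 30.0 FPKM of each sum.

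**Figure D4:**
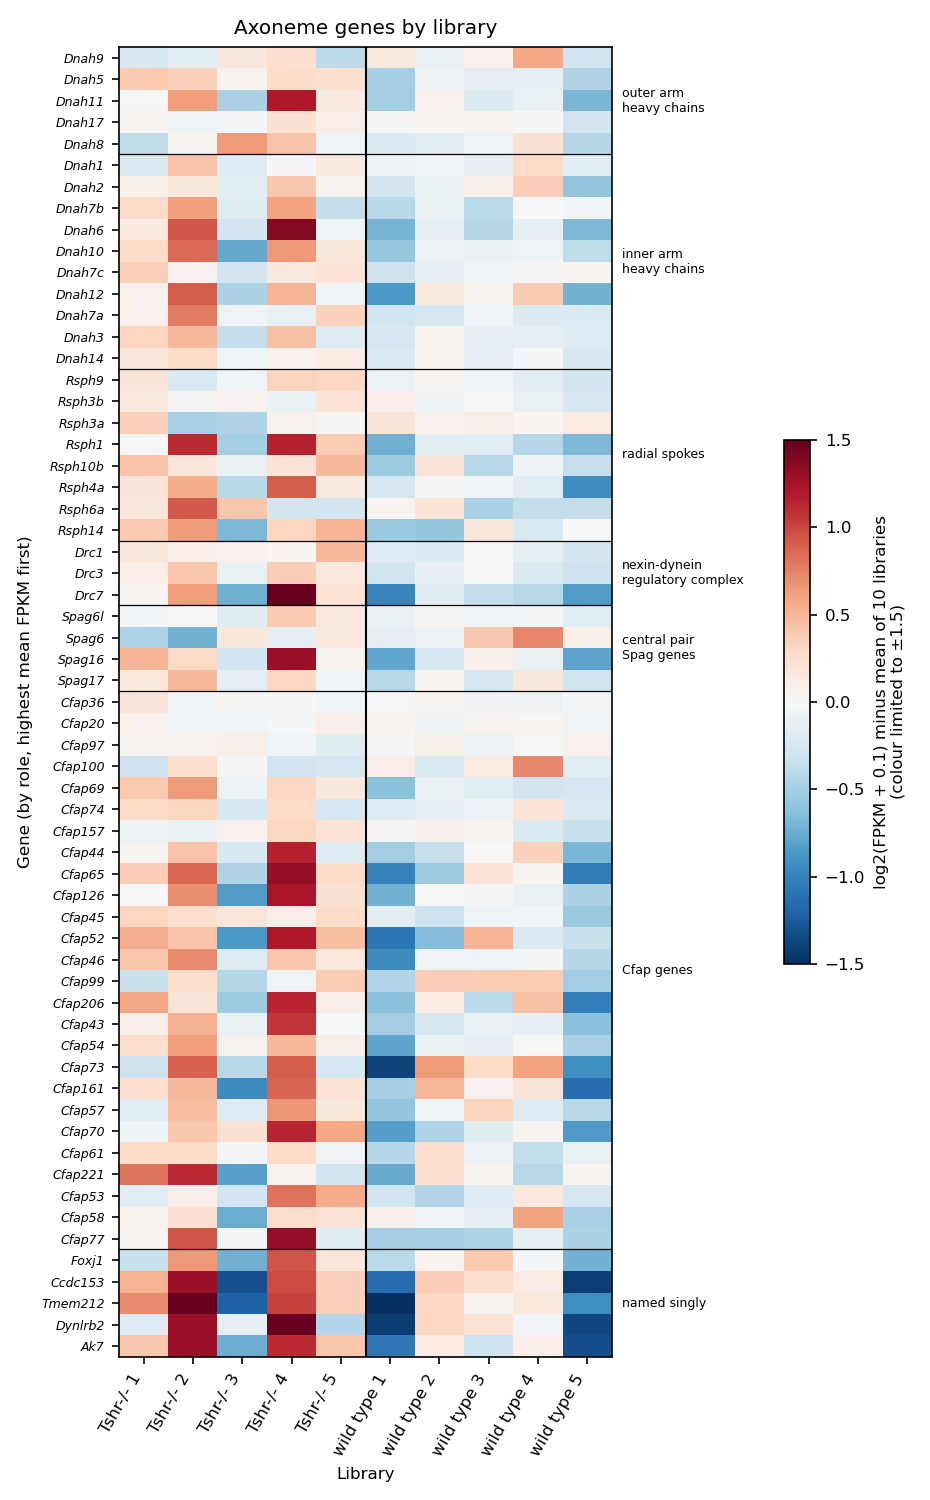
log2(FPKM + 0.1) of each of the 61 axoneme genes minus its mean over the 10 libraries (colour, limited to ±1.5), with genes in rows by role and libraries in columns, Tshr-/- left of wild type. Tshr-/- libraries 2 and 4 are red and wild-type libraries 1 and 5 blue for most genes, Tshr-/- library 3 is blue for many, and Cfap36, Cfap20 and Cfap97 are near white.

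Markers of neighbouring tissue also differed between these libraries, choroid plexus and thalamus in another order and meninges partly in the same one. The 14 choroid plexus genes summed to 7.04, 47.7, 30.8, 2287 and 59.7 FPKM in Tshr-/- and to 5.34, 10.7, 23.1, 37.1 and 91.9 FPKM in wild type, with Kcne2 and Kcnj13 at 0 in wild-type libraries 1 and 3. Of these, 11 were tested, 10 had a difference above 0 and 0 were called, with a median of 1.19. Of the 11, 8 had a wild-type mean below 0.5 FPKM and passed the filter through Tshr-/-, which tilts that count and median upwards. Without a filter 13 of the 14 were above 0, with a median of 1.16. Each gene was also set on the log2 scale against its mean over the 10 libraries. The median of the 14 was then 4.37 in Tshr-/- library 4. It was -0.79, -0.09, -0.46 and -0.25 in Tshr-/- libraries 1, 2, 3 and 5, within the wild-type range of -0.995 to 0.27. Tshr-/- library 4, highest in axoneme genes, was highest here by far. Wild-type library 5, lowest in the summed axoneme genes, was the second highest here. Ttr, the transthyretin of choroid plexus, had 2189 FPKM in Tshr-/- library 4 and 2.77 to 54.2 FPKM in the other Tshr-/- libraries, against 0.830 to 84.1 FPKM in wild type. Otx2, a transcription factor of choroid plexus, had 0.572, 1.53, 0.0671, 3.51 and 0.372 FPKM in Tshr-/- and 0.00961, 0.744, 0.0898, 0.107 and 0.579 FPKM in wild type.

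The 9 thalamus and habenula genes summed to 100.2, 188, 31.6, 50.6 and 26.2 FPKM in Tshr-/- and to 21.3, 62.3, 22.2, 16.6 and 84.0 FPKM in wild type. Tshr-/- library 2 was highest in them, and wild-type library 5 was the third. Their 8 tested genes were all above 0 in log2 difference, with 1 at an unadjusted p below 0.05, 0 called and a median of 0.83, and 2 of the 8 passed the filter through Tshr-/-. Zic1, which encodes a zinc finger protein also made in meninges, had 16, 31.1, 2.58, 13.5 and 4.42 FPKM in Tshr-/- and 1.67, 9.35, 1.88, 1.49 and 14.6 FPKM in wild type. The 10 meninges and fibroblast genes summed to 23.3, 26.35, 23.2, 53.1 and 16.5 FPKM in Tshr-/- and to 10.2, 21.1, 11.45, 13.2 and 25.5 FPKM in wild type. Tshr-/- libraries 4 and 2 were highest in them, as in the summed axoneme genes. Wild-type library 1 was lowest, while wild-type library 5, lowest in the axoneme sum, was the third. Of these genes, 10 of 10 were above 0, 5 of them at an unadjusted p below 0.05, with 0 called, and 1 of the 10 passed the filter through Tshr-/-. Beside these counts and those of thalamus and choroid plexus, 46.7% of all genes tested were above 0 and 4.65% were higher at that p. The meninges median was 0.78, against 0.33 for the axoneme genes tested. The part of choroid plexus, thalamus and meninges in the axoneme values was not tested. Without Tshr-/- library 4 the axoneme genes gave 24 of 29 differences above 0, 7 of them at an unadjusted p below 0.05, with 0 called and a median of 0.25, and without Tshr-/- library 2 they gave 23 of 29, 7, 0 and 0.32. The shares of all genes above 0 and at that p were not counted in those fits. Markers of hippocampal neurons, which show the labelled tissue, were present throughout, at summed levels of 230 to 373 FPKM in Tshr-/- and 345 to 489 FPKM in wild type. Of the 7 genes, 7 were below 0, against 53.3% of all genes tested, with a median of -0.42. At an unadjusted p below 0.05, 6 were lower, against 8.38% of all genes tested. None was called, and the smallest limma adjusted p was 0.176. Neurod2, a transcription factor of excitatory neurons, had 74.5, 68.0, 122.7, 117.9 and 100 FPKM in Tshr-/- and 156, 103, 139, 135 and 103 FPKM in wild type, lowest in Tshr-/- libraries 1 and 2. How far these neuronal levels bear on the axoneme values was not tested.

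**Figure D5:**
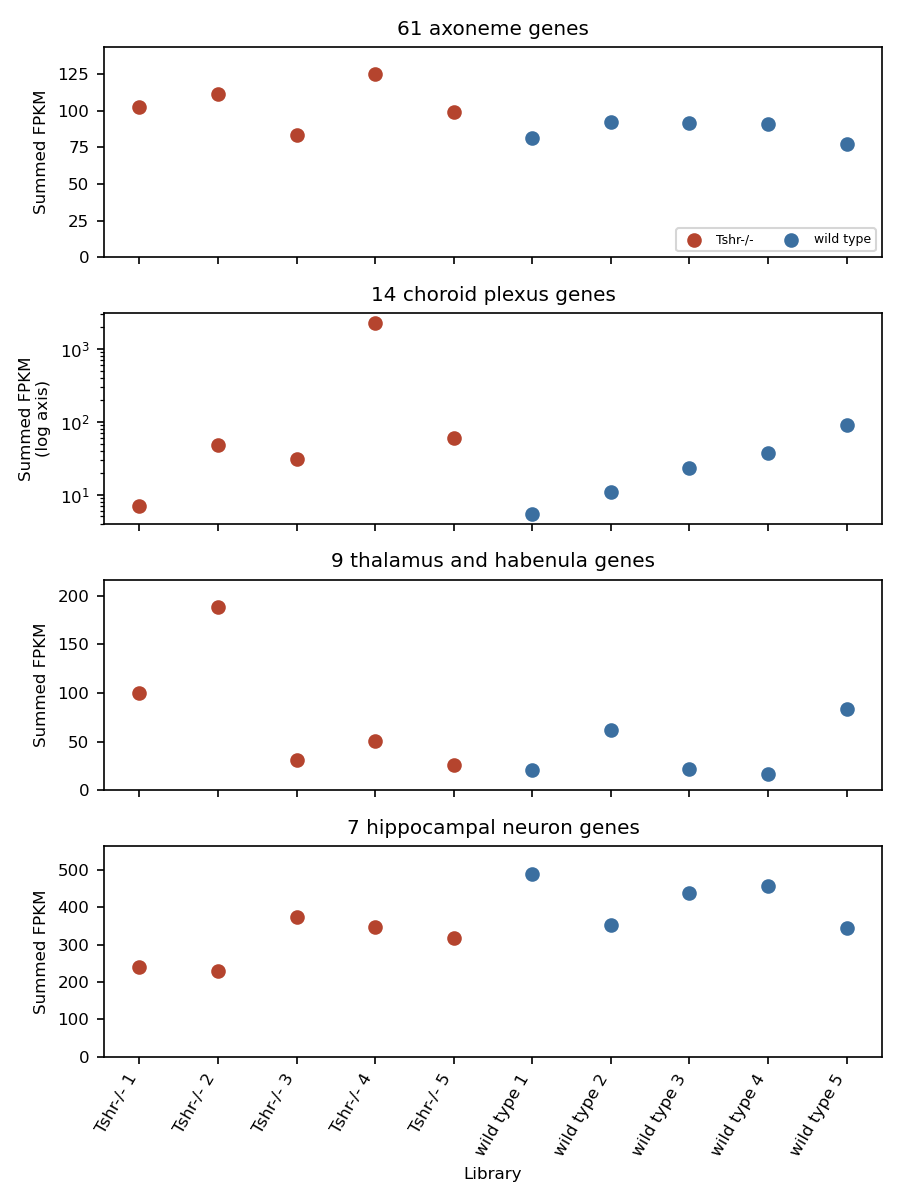
Summed FPKM per library of the 61 axoneme genes and of choroid plexus, thalamus and habenula, and hippocampal neuron genes (y axes, the choroid plexus one logarithmic), Tshr-/- in red and wild type in blue. Tshr-/- library 4 is highest in axoneme and choroid plexus genes, Tshr-/- library 2 in thalamus and habenula genes, and wild-type library 5 is lowest in axoneme genes but, among wild type, highest in choroid plexus and thalamus genes.

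Genes that belong with motile cilia but fall outside the symbol rule were lists of their own. Of 32 further structure genes, 18 were tested, 14 had a difference above 0, 2 of them at an unadjusted p below 0.05, and 0 were called, with a median of 0.19. Among all genes tested, 46.7% were above 0 and 4.65% were higher at that p. Of the 18, 1 passed the filter through Tshr-/-. Without a filter 27 of the 32 were above 0, with a median of 0.28. The most abundant, the dynein light chain Dnal1, had 16.6 ± 0.951 FPKM in Tshr-/- and 16.5 ± 0.544 FPKM in wild type (SD, n = 5 each). Of 16 factors that assemble or dock the dynein arms, 9 were tested, all above 0, with 0 called, 0 at an unadjusted p below 0.05 and a median of 0.15, and 2 of the 9 passed the filter through Tshr-/-. Among these, Ccdc39, a ruler for the spacing of the arms, had 2.49 ± 0.289 FPKM in Tshr-/- and 2.11 ± 0.338 FPKM in wild type, and Pih1d3 was at 0 in every library.

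Of 12 regulators of ciliogenesis, which act before the axoneme is built, 7 were tested, 2 were above 0 and 5 below, with 0 called, 0 at an unadjusted p below 0.05 and a median of -0.10, where 53.3% of all genes tested were below 0. Without a filter 7 of the 12 regulators were above 0, with a median of 0.05, so the list had no single direction. Rfx3, an RFX factor of ciliated cells, had 7.0 ± 1.17 FPKM in Tshr-/- and 8.11 ± 0.475 FPKM in wild type, and E2f4, a cell cycle factor that also acts in multiciliated cells, had 12.4 ± 1.22 FPKM in Tshr-/- and 13.4 ± 1.33 FPKM in wild type (SD, n = 5 each). Of 12 ependymal markers that are not cilium structure, 8 were tested, 7 were above 0 with a median of 0.09, 1 had an unadjusted p below 0.05 and 0 were called. Several of these are also made by astrocytes or neurons, and the list summed to 240.4 to 278 FPKM in Tshr-/- and 186 to 266 FPKM in wild type. That sum rests mostly on the most abundant genes of the list. Rarres2, a chemerin gene of ependyma, had 1.44, 2.72, 0.787, 1.73 and 1.63 FPKM in Tshr-/- and 0.836, 1.40, 1.23, 0.834 and 1.04 FPKM in wild type, highest in Tshr-/- library 2 and lowest in Tshr-/- library 3. Its log2 difference of 0.52 was the highest of the 8 tested and does not stand for the list. Vim, Aqp4 and Sox9 had 0.03, 0.01 and -0.11, the last being the lowest of the 8. Mia stood at or near 0 in all libraries, at most 0.0405 FPKM.

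Primary cilium and intraflagellar transport genes, which neurons use as well, served as the ciliary comparison without motility. All 26 were tested, 16 were above 0 and 10 below, with 3 higher and 1 lower at an unadjusted p below 0.05, 0 called and a median of 0.02. Their smallest limma adjusted p was 0.187, against 0.186 for the axoneme genes. They summed to 216 to 230 FPKM in Tshr-/- and 218 to 224 FPKM in wild type, a far narrower spread of the sum between libraries than that of the axoneme genes. The lists were not matched on level, and the axoneme genes are mostly low. Kif3a, the anterograde motor subunit, had 40.6 ± 2.84 FPKM in Tshr-/- and 39.2 ± 1.35 FPKM in wild type, and Ift20, a transport particle subunit, had 27.3 ± 1.74 FPKM in Tshr-/- and 28.6 ± 1.32 FPKM in wild type (SD, n = 5 each).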

How the data were processed

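The authors deposited 1 table of FPKM values for 52636 genes in 10 libraries, with gene lengths and coordinates. Reads were processed with HISAT2 2.0.5, featureCounts 1.5.0-p3 and mm10, per the submitters' processing notes. Which annotation release was counted is not stated in the sources used here. Within a library, every value above 0 (100%), multiplied by its gene's length, came out as a whole multiple of the value of 1 read (tolerance 0.01 of a read), so reads were rebuilt. The deposited FPKM columns had median-ratio scale factors that equal 1 when rounded to 4 decimals, so median-ratio scaling changed nothing.

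The test was limma 3.58.1 in R 4.3.3 on log2(FPKM + 0.1) with a mean-variance trend, for genes with a mean of at least 0.5 FPKM, adjusted over all 15471 genes by the Benjamini-Hochberg method. It was also run on simulated reads. These had the same added scatter for every gene and none shared between genes, so they do not check the test for genes as variable as these. Exon overlaps came from GENCODE vM21, which holds all 61 IDs. Exons of 25 of the 61 genes overlap another gene, and strand was not marked. Members, lists and tests were chosen with earlier results of these data known. Genes eligible to be named were the 5 singly named, the 3 most abundant of each role, the 4 smallest p in each direction, the 2 most abundant of each list, and Ttr, Otx2, Rarres2, Mia and Zic1. Of these, 1 comparison gene is not reported here. Any other was named after its values were seen. Alternatives were other pseudocounts (1 and 0.01), filters (none, 0.1 and 1 FPKM), scaling, no trend, protein-coding genes, the replicate block, each library left out and, added after seeing the data in place of TMM scaling, limma voom on rebuilt reads with the library sizes that FPKM carries. The number of libraries and of reads limits precision, and low genes rest on few reads.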

Additional observations from a re-analysis of the deposited data

Results flagged for a closer look

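Of 96 groups of 5 libraries, 11 held a library whose gap to the next exceeded 0.71 of the range. That rule flags about 1 group in 20 by chance only for independent values of normal shape. FPKM of genes that share libraries need not be such values, so the 11 cannot be read as an excess over chance. Among axoneme genes in Tshr-/-, Drc7 had 5.0 FPKM in library 4 (others 0.381 to 1.14), Drc1 3.94 in library 5 (others 2.85 to 3.15) and Cfap36 30.0 in library 1 (others 25.4 to 26.5). In wild type, library 4 stood apart for Dnah1, with 0.817 FPKM (others 0.565 to 0.622), for Cfap100, with 2.68 (others 1.36 to 1.73), and for the dynein arm spacing gene Ccdc39, with 2.69 (others 1.85 to 2.08). Among the comparison genes, Tshr-/- library 4 stood apart for Ttr at 2189 FPKM (others 2.77 to 54.2), Kl at 10.6 (others 1.46 to 2.96) and Igf2 at 25.6 (others 5.0 to 9.24). Calb2 reached 68.9 FPKM in Tshr-/- library 2 (others 10.7 to 26.0) and Kif3a 41.6 in wild-type library 2 (others 38.3 to 38.9).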

How the results depend on the processing

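No axoneme gene was called under any of the 20 alternatives, where the lowest adjusted p was 0.106. The median difference of 0.33 stayed above 0, from 0.19 with a filter at 1 FPKM (20 genes) to 0.45 without Tshr-/- library 3, and was 0.25 without Tshr-/- library 4. The 8 genes at an unadjusted p below 0.05 became 14 of 31 without Tshr-/- library 3 and 4 of 20 with a filter at 1 FPKM. Without Tshr-/- library 1, 6 of 30 were higher and 1 lower at that p. Apart from the fit with no filter, the share of all genes at that p was not counted under the alternatives, so these counts have no background beside them. The count over all genes, 2, was 14 with a pseudocount of 0.01, 4 with no filter, 4 with a filter at 0.1 FPKM, 13 at 1 FPKM, 1 with no trend, 17 among protein-coding genes, 2 with limma voom and 0 to 9 with single libraries left out. Of the 22 named members tested, 19 kept their direction throughout. With single libraries left out, Cfap20 ran from -0.012 to 0.026, Cfap97 from -0.040 to 0.028 and Dnah1 from -0.044 to 0.14, and the cause was not tested. Among other members, 1 library moved the difference over 1.5 times for Ccdc153 (1.2 without Tshr-/- library 3, 0.47 without wild-type library 5), Tmem212 (0.58 without wild-type library 1), Dynlrb2 (0.59 without Tshr-/- library 4), Rsph3a (-0.31, -0.10 and -0.11 without Tshr-/- libraries 1, 2 and 3), Spag6 (-0.26 without wild-type library 4), Spag6l (0.05 without Tshr-/- library 4), Dnah2 (0.10 without wild-type library 5) and Cfap36 (0.02 without Tshr-/- library 1). The planned voom fit with TMM scaling was not run, and voom with the library sizes that FPKM carries, chosen after seeing the data, took its place. Same-numbered libraries share only a number: their deviations correlated at -0.0651 to 0.297, and 4 of 10 libraries correlated best with their own number. With the replicate block, 0 axoneme genes and 3 genes in all were called, and the median was 0.33. At an unadjusted p below 0.05, 11 of the 31 were higher and 0 lower, again without a share of all genes counted.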
